A study of Mus musculus with 6 samples.

Results

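Aminoacyl-tRNA synthetases, the enzymes that load each transfer RNA with its amino acid, were examined in FRG livers after NTBC therapy withdrawal. The members were all genes whose only symbol in the array annotation follows the naming pattern of a synthetase, each represented by its probe set with the highest mean log2 intensity over all arrays (the brightest probe set). This rule gave 35 of 18193 genes, measured by 72 of 45037 probe sets. Of these, 19 encode cytosolic enzymes and 16 have a symbol ending in 2 and encode mitochondrial enzymes.

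RNA from the whole liver of 6 males aged 12 weeks was measured on Affymetrix Mouse 430 arrays, with 1 array for each animal. Every mouse was of the FRG strain (Fah-/-, Rag2-/-, Il2rg-/-) on a C57Bl/6J background, so both groups lacked the last enzyme of tyrosine breakdown as well as mature lymphocytes. The 3 FRG-7dNTBC mice had spent 7 days without NTBC, a drug that blocks an earlier step of that pathway, and the 3 FRG+NTBC mice had taken 16 mg/l throughout. Mice with intact Fah were not analysed here, so the comparison is between withdrawal and treatment within 1 mutant strain. Values are deposited intensities on a linear scale, and fold changes are differences in log2 intensity, FRG-7dNTBC minus FRG+NTBC.

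Each synthetase activates 1 amino acid and joins it to the matching transfer RNA, which then delivers it to the ribosome. Mitochondria translate their own small set of messages and use separate, nuclear-encoded synthetases for most amino acids. Gars (glycine) and Kars (lysine) are exceptions, since each encodes the enzyme of both compartments. Mitochondria also have no glutamine enzyme of their own. Ears2 loads glutamate onto their glutamine transfer RNA, and an amidotransferase then converts it. Several cytosolic enzymes are held together in the multisynthetase complex by the scaffold proteins Aimp1, Aimp2 and Eef1e1. In cultured mammalian cells short of an amino acid, the transcription factor ATF4 is known to raise many cytosolic synthetase genes through the C/EBP-ATF response element.

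Median intensity was 33.1 to 34.3 in FRG-7dNTBC arrays and 35.3 to 36.5 in FRG+NTBC arrays, and log2 values of arrays correlated at 0.98 to 0.99 within FRG-7dNTBC, 0.988 to 0.993 within FRG+NTBC and 0.93 to 0.955 between groups. Hepatocyte markers were bright throughout, with summed intensities of 88122 to 91515 in FRG-7dNTBC and 92175 to 94319 in FRG+NTBC livers, and 1 of 5 was lower (Hnf4a). Alb (up to 27939) and Ttr (up to 27364) lay near the highest deposited intensity of 29532. Whether these sums follow the amount of hepatocyte RNA was not tested. Some markers of other liver cells also passed, where 17.4% of all genes were higher and 12.7% lower. Among 8 macrophage markers 3 were higher (summed intensity 1998 to 5098 in FRG-7dNTBC and 1717 to 2585 in FRG+NTBC livers). Among 6 endothelial markers 2 were (1778 to 2191 in FRG-7dNTBC, 1119 to 1670 in FRG+NTBC), among 7 stellate cell markers 1 (1023 to 4021 in FRG-7dNTBC, 1453 to 1840 in FRG+NTBC) and among 6 cholangiocyte markers 1 (278 to 587 in FRG-7dNTBC, 285 to 302 in FRG+NTBC). The stellate (14.3%) and cholangiocyte (16.7%) shares were not above that of all genes. None of 5 neutrophil markers (164 to 267 in FRG-7dNTBC, 178 to 245 in FRG+NTBC) and none of 8 T, B and NK cell markers (298 to 305 in FRG-7dNTBC, 303 to 332 in FRG+NTBC) passed limma, with 1 and 0 at an unadjusted p under 0.05. No marker was at 0. In whole liver, fewer cells of a type and less RNA per cell cannot be told apart, and the part of these shifts in the values below was not tested.

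Of 19 cytosolic synthetase genes, 5 were higher in FRG-7dNTBC livers, none was lower and 14 did not pass (limma, adjusted p under 0.05 over all probe sets). The genes that rose were Gars, Rars, Farsa, Eprs and Farsb, by 1.56-fold to 2.96-fold. Over all genes 17.4% were higher and 12.7% lower, so the 26.3% of cytosolic members that rose was not far above the background. The median log2 fold change of the cytosolic members was 0.25, against -0.05 over all genes. Among those that did not pass, 2 on the lower side (Mars1 and Yars) and 2 on the higher side (Kars and Wars) had an unadjusted p under 0.05. Without moderation of the variances 3 were higher and 1 was lower, and without FRG+NTBC replicate 2 only 3 were higher.

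Gars, whose glycine enzyme serves both cytosol and mitochondria, had intensities of 1361, 1833 and 1278 in FRG-7dNTBC livers, against 443, 523 and 530 in FRG+NTBC livers. The groups were far apart, and every FRG-7dNTBC liver was above 2 times the FRG+NTBC values. The log2 fold change was 1.57 (limma SE 0.17, adjusted p = 4.64e-04), the largest of the family. Rars, the arginine enzyme of the multisynthetase complex, followed, with 744, 605 and 639 in FRG-7dNTBC and 304, 220 and 298 in FRG+NTBC livers. Again no liver of 1 group reached the other, with a log2 fold change of 1.28 (limma SE 0.17, adjusted p = 0.00102). Calls for Gars and Rars held under each of the 15 alternatives run.

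Both subunits of the phenylalanine enzyme rose. Farsa, the alpha subunit, had 186, 209 and 138 in FRG-7dNTBC livers and a narrow 93.1, 90.5 and 85.0 in FRG+NTBC livers (log2 fold change 0.97, limma SE 0.17, adjusted p = 0.00401). Farsb, the beta subunit, had 1010, 803 and 685 in FRG-7dNTBC livers, against 666, 478 and 461 in FRG+NTBC livers, so that the lowest and highest values of the groups nearly met. Its log2 fold change of 0.64 (SE 0.20) was close to the threshold (limma adjusted p = 0.0450). Leaving out FRG-7dNTBC replicate 1 or 2 or FRG+NTBC replicate 2 or 3 ended the Farsb call, with adjusted p-values of 0.147, 0.0752, 0.146 and 0.134 from limma. It was also lost after scaling to one 75th percentile (0.51, adjusted p = 0.0821) and after quantile normalization (0.46, 0.142 from limma). An intensity trend (0.0524), no moderation (0.151) and leaving out probe sets ending in _s_at or _x_at (0.69, 0.127 from limma) ended it too. Of 15 alternatives, 6 kept the Farsb call. Eprs, a single protein that charges glutamate and proline, had 1097, 1370 and 1105 in FRG-7dNTBC livers and 861, 639 and 709 in FRG+NTBC livers (log2 fold change 0.70, limma SE 0.16, adjusted p = 0.0136). Its call was lost without FRG+NTBC replicate 2 (adjusted p = 0.0587) and without moderation (0.0695 from limma).

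Kars, the lysine enzyme of both compartments, had the same log2 fold change as Farsa but a wider spread. Its intensities were 545, 849 and 333 in FRG-7dNTBC livers and 214, 315 and 307 in FRG+NTBC livers. FRG-7dNTBC replicate 3 lay just above the highest FRG+NTBC liver, and the log2 fold change of 0.97 (SE 0.32) missed the threshold (limma adjusted p = 0.0579). Without that mouse the value was 1.31 (limma SE 0.25, adjusted p = 0.00524). Kars also passed without dim probe sets (limma adjusted p = 0.0415), with array weights (0.0188) and with the replicate number as a block (0.0477). In 11 of 15 alternatives it did not pass. Leaving Gars and Kars out of the cytosolic enzymes gave 4 higher of 17 and a median of 0.20.

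The other cytosolic members lay between -0.41 and 0.54 and did not pass. On the positive side were Cars (cysteine, 0.54, limma adjusted p = 0.147), Wars (tryptophan, 0.31), Lars (leucine, 0.28), Tars (threonine, 0.25), Vars (valine, 0.20) and Iars (isoleucine, 0.20). On the negative side were Nars (asparagine, -0.15), Sars (serine, -0.20), Hars (histidine, -0.23), Aars (alanine, -0.23), Mars1 (methionine, -0.37), Qars (glutamine, -0.39) and Yars. Yars, which charges tyrosine, the amino acid whose breakdown is interrupted in these mice, had the lowest value of the 19. Its intensities were 302, 399 and 304 in FRG-7dNTBC livers, against 370, 495 and 474 in FRG+NTBC livers, with 1 FRG-7dNTBC liver above the lowest FRG+NTBC liver. The log2 fold change was -0.41 (limma SE 0.17, adjusted p = 0.111). Mars1 had 923, 873 and 976 in FRG-7dNTBC livers and 1278, 1136 and 1168 in FRG+NTBC livers. Its groups did not overlap, but it also missed the threshold (limma SE 0.12, adjusted p = 0.0524). Scaling every array to one 75th percentile took both past it, at -0.54 for Yars (adjusted p = 0.0320) and -0.50 for Mars1 (limma adjusted p = 0.0240). The median of all probe sets then moved by -0.13. Quantile normalization, where that median moved by 0.07, gave -0.59 for Yars (adjusted p = 0.0213) and -0.55 for Mars1 (limma adjusted p = 0.0191). Array weights also took both past it (limma adjusted p = 0.0173 and 0.0339). Mars1 passed as well without moderation (0.0452) and with the mean of a gene's probe sets (0.0297 from limma).

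**Figure D1:**
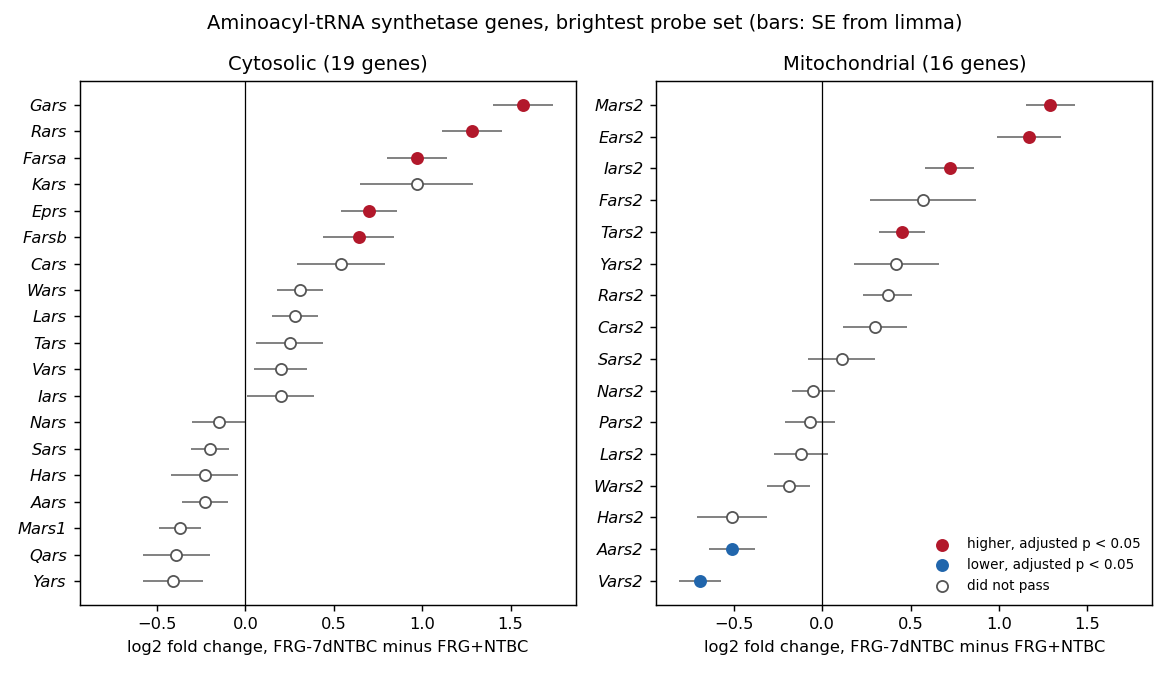
The horizontal axis is the log2 fold change of FRG-7dNTBC over FRG+NTBC for 19 cytosolic and 16 mitochondrial synthetase genes at the brightest probe set, with the SE from limma as bars. Filled points passed an adjusted p under 0.05, red where higher and blue where lower: 5 cytosolic genes are red, and 4 mitochondrial genes are red and 2 blue.

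Promoters were searched for 2 motifs on both strands in the 250 bases before and 50 bases after the start site, from RefSeq on GRCm38.p6, which held 26 of the members (12 cytosolic and 14 mitochondrial). The C/EBP-ATF response element, TGATGNAA, occurred in 5 of 12 cytosolic and 0 of 14 mitochondrial promoters, against 4.06% of 27025 promoters. The antioxidant response element core, TGACNNNGC, occurred in 3 cytosolic and 3 mitochondrial promoters (12.5% of all promoters). The letters of the motifs differ, and a match is a description of letters only. Rars, with the second largest cytosolic rise, was among the members with no promoter in the table.

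The 5 promoters with the C/EBP-ATF element are shown over 120 bases before and 20 bases after the start site, on the strand of the gene, since it was the motif found on the cytosolic side alone. Capitals mark the element or its reverse complement.
Gars, chr6:55037881-55038020 (+): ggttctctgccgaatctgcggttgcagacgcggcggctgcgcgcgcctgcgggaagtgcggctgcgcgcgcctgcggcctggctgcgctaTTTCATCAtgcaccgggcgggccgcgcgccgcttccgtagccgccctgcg
Tars, chr15:11399639-11399778 (-): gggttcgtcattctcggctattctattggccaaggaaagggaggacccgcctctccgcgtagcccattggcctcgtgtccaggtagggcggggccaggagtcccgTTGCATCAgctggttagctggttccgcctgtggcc
Iars, chr13:49682010-49682149 (+): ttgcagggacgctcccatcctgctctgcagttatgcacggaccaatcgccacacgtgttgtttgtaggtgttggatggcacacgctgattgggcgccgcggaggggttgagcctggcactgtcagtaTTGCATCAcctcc
Aars, chr8:111033722-111033861 (+): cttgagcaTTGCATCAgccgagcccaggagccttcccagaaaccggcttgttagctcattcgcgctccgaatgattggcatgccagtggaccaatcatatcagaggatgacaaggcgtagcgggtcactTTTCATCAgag
Yars, chr4:129189783-129189922 (+): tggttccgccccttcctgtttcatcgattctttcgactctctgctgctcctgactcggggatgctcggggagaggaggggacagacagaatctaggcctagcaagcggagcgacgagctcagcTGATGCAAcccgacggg

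Gars carries the element 30 bases before its start site, and Tars 15 bases before. Iars and Yars carry it from bases 8 and 4 of the transcript. Aars holds a pair, 112 bases before the start and from base 10. The brightest probe sets of these 5 genes had log2 fold changes of 1.57 (Gars), 0.25 (Tars), 0.20 (Iars), -0.23 (Aars) and -0.41 (Yars). They include both the highest and the lowest cytosolic value, and 1 of the 5 passed. The dimmer probe set of Iars also passed (1.56, limma adjusted p = 0.00817), and that of Aars stood at 0.37 (limma adjusted p = 0.322). Gars, Tars and Yars have 1 probe set each. Farsa, Eprs and Farsb, which were higher, have no match in this window.

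Among the 16 mitochondrial synthetase genes, 4 were higher (Mars2, Ears2, Iars2 and Tars2), 2 were lower (Vars2 and Aars2) and 10 did not pass. That is 25.0% higher and 12.5% lower, against 17.4% and 12.7% over all genes. The median log2 fold change was 0.20, and the values ran from -0.69 to 1.29. This median fell to 0.04 without FRG-7dNTBC replicate 2. Without FRG-7dNTBC replicate 3, 7 were higher and 3 lower, since Fars2, Rars2, Cars2 and Hars2 then passed. Over both compartments the groups did not overlap at 13 members that stood higher and 5 that stood lower after withdrawal, where 22.8% and 23.4% of all genes did the same.

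Ears2, which charges glutamate and in mitochondria also begins the making of glutaminyl-tRNA, had 135, 212 and 163 in FRG-7dNTBC livers, against 77.7, 66.7 and 79.9 in FRG+NTBC livers. Its lowest FRG-7dNTBC value was well above the highest FRG+NTBC value (log2 fold change 1.17, limma SE 0.18, adjusted p = 0.00239). Iars2, the isoleucine enzyme, had 260, 267 and 237 in FRG-7dNTBC livers and 135, 159 and 171 in FRG+NTBC livers (log2 fold change 0.72, limma SE 0.14, adjusted p = 0.00566). Its mice were close to each other in both groups. Both calls held under all 15 alternatives. Tars2, the threonine enzyme, changed less, with 300, 313 and 256 in FRG-7dNTBC livers and 194, 217 and 226 in FRG+NTBC livers (log2 fold change 0.45, limma SE 0.13, adjusted p = 0.0402). Leaving out any mouse except FRG-7dNTBC replicate 3 ended its call, with adjusted p-values of 0.0639 to 0.123 from limma. So did scaling to one 75th percentile (0.32, adjusted p = 0.0897), quantile normalization (0.28, 0.130), an intensity trend (0.0732), no moderation (0.0759), the replicate number as a block (0.0805) and the mean of its probe sets (0.17, 0.233), and 4 of 15 alternatives kept it.

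Mars2, the mitochondrial methionine enzyme, gave the largest mitochondrial value but near the bottom of the intensity scale. It had 19.4, 18.0 and 17.3 in FRG-7dNTBC livers, against 6.92, 8.69 and 6.87 in FRG+NTBC livers, where the lowest deposited intensity was 3.84 and every value lay below its array's median. Its means of 18.2 in FRG-7dNTBC and 7.49 in FRG+NTBC livers lay below that of the probe set of Rag2, the gene disrupted in these mice, which averaged 20.1 in each group. No other member lay below Rag2 in both groups. The log2 fold change of 1.29 passed (limma SE 0.14, adjusted p = 4.74e-04), but at this level it is not an exact size. Leaving out dim probe sets removed Mars2 and left 3 mitochondrial genes higher.

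The lower mitochondrial genes were the valine and alanine enzymes. Vars2 had 136, 131 and 142 in FRG-7dNTBC livers, against 214, 212 and 234 in FRG+NTBC livers. Both groups were tight and well apart (log2 fold change -0.69, limma SE 0.12, adjusted p = 0.00348), and the call held under all 15 alternatives. Aars2 had 125, 101 and 106 in FRG-7dNTBC livers and 152, 162 and 157 in FRG+NTBC livers (log2 fold change -0.51, limma SE 0.13, adjusted p = 0.0215). The Aars2 call was lost without FRG-7dNTBC replicate 2 (adjusted p = 0.0614) without FRG+NTBC replicate 2 or 3 (0.0776 and 0.0571) and with the replicate number as a block (0.0507 from limma). Hars2, for histidine, had the same log2 fold change of -0.51 with overlapping groups (limma SE 0.20, adjusted p = 0.0971), and passed without FRG-7dNTBC replicate 3 (-0.71, limma adjusted p = 0.0141). The remaining members did not pass: Fars2 stood at 0.57, Yars2 at 0.42, Rars2 at 0.37, Cars2 at 0.30, Sars2 at 0.11, Nars2 at -0.05, Pars2 at -0.07, Lars2 at -0.12 and Wars2 at -0.19. Sars2 turned to -0.02 after scaling to one 75th percentile and to -0.07 without FRG-7dNTBC replicate 2.

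**Figure D2:**
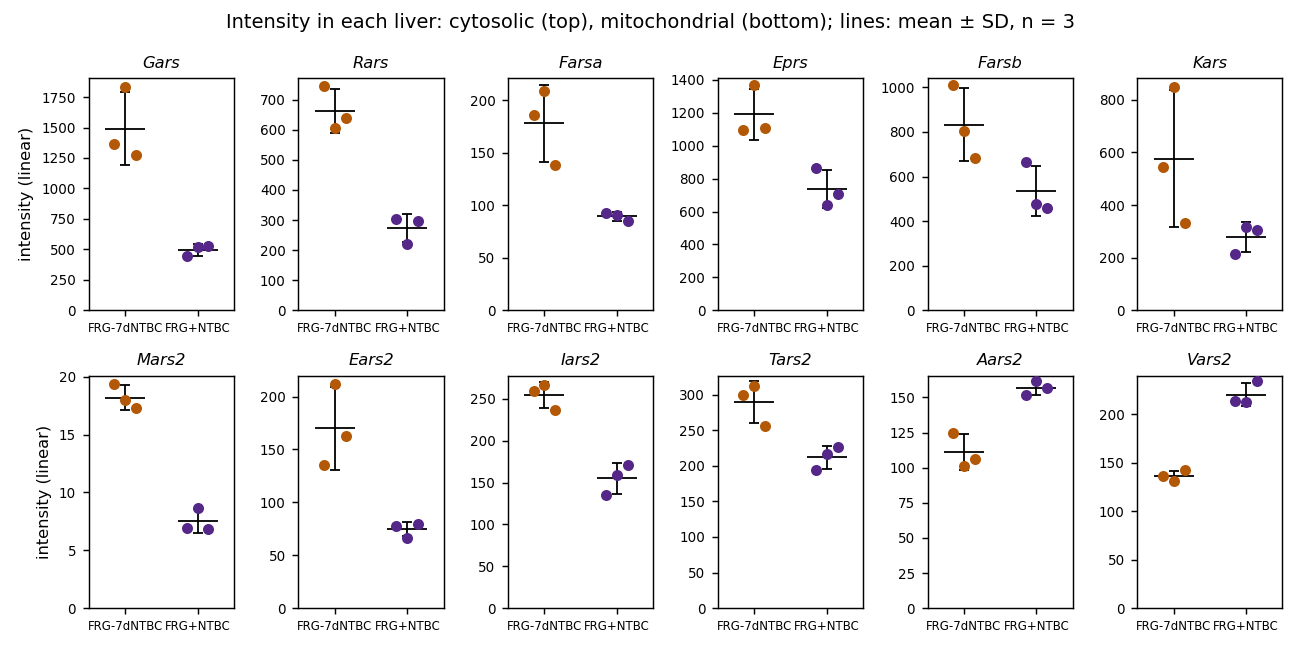
Deposited intensity (linear vertical axis from 0) in each liver for 6 cytosolic genes (top) and 6 mitochondrial genes (bottom), 1 point per mouse. Lines are the mean and SD of 3 mice. Aars2 and Vars2 are lower in all FRG-7dNTBC livers, the other 10 genes are higher, and Kars shows its widest spread among FRG-7dNTBC mice (333 to 849).

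To set both enzymes of 1 amino acid side by side, the log2 ratio of cytosolic to mitochondrial intensity was taken within each array and compared between groups. Of 17 such pairs, 10 moved towards the cytosolic and 7 towards the mitochondrial enzyme, with a median difference of 0.24. Some pairs share a gene, since Fars2 was paired with both Farsa and Farsb, and Eprs with both Pars2 and Ears2. The tally was 9 to 8 without FRG+NTBC replicate 2 or 3 or FRG-7dNTBC replicate 3, and 11 to 6 without FRG-7dNTBC replicate 1. It was 12 to 5 both with the mean of a gene's probe sets and without probe sets ending in _s_at or _x_at. Pairs were compared with an exact permutation test alone, whose smallest p with 3 mice against 3 is 0.1, so that none could pass it. In 9 pairs the log ratios of the groups did not overlap, 6 towards the cytosolic and 3 towards the mitochondrial enzyme. Single genes did so at 22.8% in the higher and 23.4% in the lower direction, and no such share was computed for pairs of genes.

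Towards the cytosolic enzyme, the difference was largest for arginine, at 0.91 (SE 0.18, exact two-sided permutation p = 0.1), where Rars rose and Rars2 stood at 0.37. For valine it was 0.89 (SE 0.15, exact permutation p = 0.1), and here the mitochondrial gene carried most of it, with Vars at 0.20 and Vars2 lower. Proline (Eprs minus Pars2, 0.77, SE 0.25), tryptophan (0.51, SE 0.08), histidine (0.28, SE 0.07) and alanine (0.28, SE 0.05) had the same exact permutation p. For alanine and histidine both enzymes had negative values, the mitochondrial ones larger in size. Towards the mitochondrial enzyme, methionine differed by -1.66 (SE 0.17), isoleucine by -0.52 (SE 0.18) and glutamate (Eprs minus Ears2) by -0.47 (SE 0.14), each with an exact permutation p of 0.1. The methionine value rests on the dim Mars2 probe set, below the Rag2 level in both groups, and is likewise not an exact size. The isoleucine value turned to 0.84 without probe sets ending in _s_at or _x_at, because Iars was then read at another probe set. The pairs for leucine, phenylalanine, cysteine, asparagine, threonine, serine and tyrosine overlapped, with exact permutation p-values of 0.2 to 0.9.

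**Figure D3:**
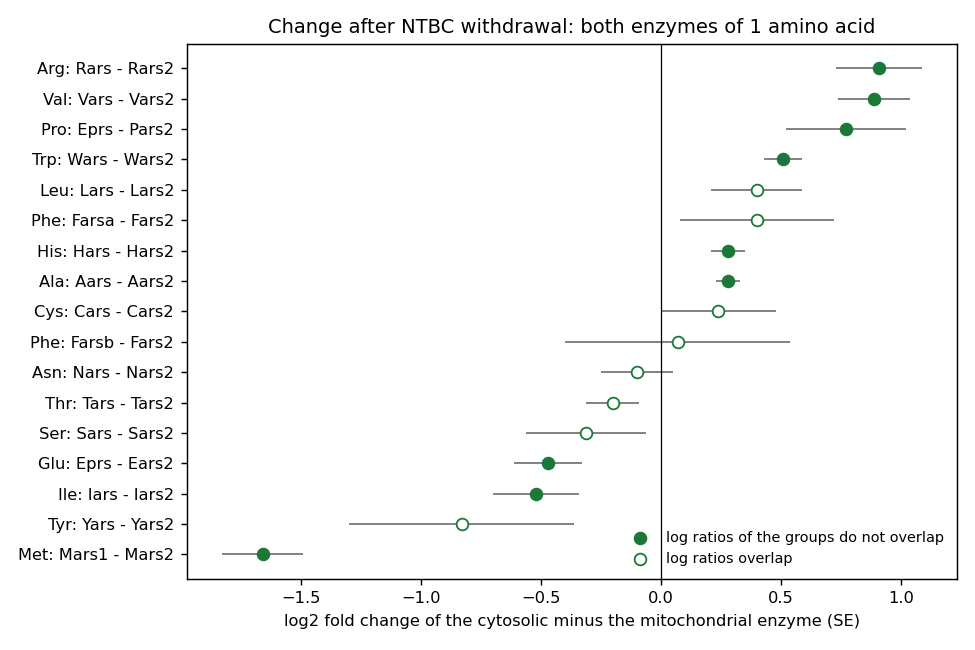
Difference in log2 fold change between the cytosolic and the mitochondrial enzyme of 1 amino acid (horizontal axis, positive where the cytosolic enzyme moved up relative to the mitochondrial one), for 17 pairs with the SE as bars. Filled points mark the 9 pairs whose log ratios did not overlap between groups, running from 0.91 for arginine to -1.66 for methionine, which rests on the dim Mars2 probe set.

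For 23 of the 35 genes the array carries several probe sets, and for 14 of them these had fold changes of both signs. Counting all 72 probe sets, 19 were higher (26.4%) and 2 lower (2.78%), against 14.0% and 13.9% of all probe sets. At 6 genes that did not pass at the brightest probe set, a dimmer one was higher: Nars, Iars, Yars2, Wars, Hars and Cars2. These dimmer probe sets are named because of their values. With them, 15 genes (9 cytosolic and 6 mitochondrial) had at least 1 higher probe set and 2 a lower one. A gene with several probe sets has more chances of a call. No such share was computed over all genes, so this count has no background to be set against.

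Nars, the asparagine enzyme, differed most between its probe sets. The brightest gave 1479, 1978 and 1898 in FRG-7dNTBC livers, against 1808, 1951 and 2150 in FRG+NTBC livers, with overlapping groups and a log2 fold change of -0.15 (limma adjusted p = 0.505). The dimmer gave 1269, 1698 and 989 in FRG-7dNTBC livers, against 290, 326 and 428 in FRG+NTBC livers (log2 fold change 1.91, limma SE 0.23, adjusted p = 7.01e-04), a larger value than that of any brightest probe set of the family. At Iars the brightest stood at 0.20, and the dimmer had 307, 508 and 224 in FRG-7dNTBC and 82.7, 111 and 149 in FRG+NTBC livers (1.56, limma SE 0.32, adjusted p = 0.00817). Yars2 read 0.42 at the brightest and 1.58 at the dimmer, which had 139, 179 and 134 in FRG-7dNTBC and 42.2, 48.5 and 61.4 in FRG+NTBC livers (limma SE 0.18, adjusted p = 6.12e-04). The dimmer probe sets of Wars (0.88, adjusted p = 0.00925), Hars (0.71, adjusted p = 0.0104) and Cars2 (1.06, limma adjusted p = 0.0391) passed as well. The Cars2 call was lost on leaving out any mouse except FRG-7dNTBC replicate 3, with adjusted p-values of 0.0599 to 0.112 from limma.

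Probe sets also differed at genes that passed. At Farsb 3 of 4 were higher, with values of 0.64 to 1.36. At Farsa 1 of 4 was higher and the others stood at -0.11 to -0.16, so that the mean of its probe sets, 0.14, did not pass (limma adjusted p = 0.318). At Eprs 2 of 4 and at Ears2 2 of 4 were higher, with ranges of -0.15 to 0.78 and -0.35 to 1.17. The dimmer probe sets of Mars2 (-0.08), Tars2 (-0.11), Iars2 (0.30) and Vars2 (-0.24) did not pass. Of the brightest probe sets, 7 carry the suffix _s_at or _x_at (Aars, Farsb, Iars, Qars, Sars, Wars and Yars2), and 1 of these, Farsb, was higher. Over all probe sets of the family, 2 of 14 with such a suffix and 17 of 58 others, ending in plain _at or _a_at, were higher. Without such probe sets Aars read 0.37, Qars 0.48 and Sars 0.20, the opposite sign to their brightest, and none of these passed. Which transcripts or 3' ends the probe sets of a gene measure was not tested.

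**Figure D4:**
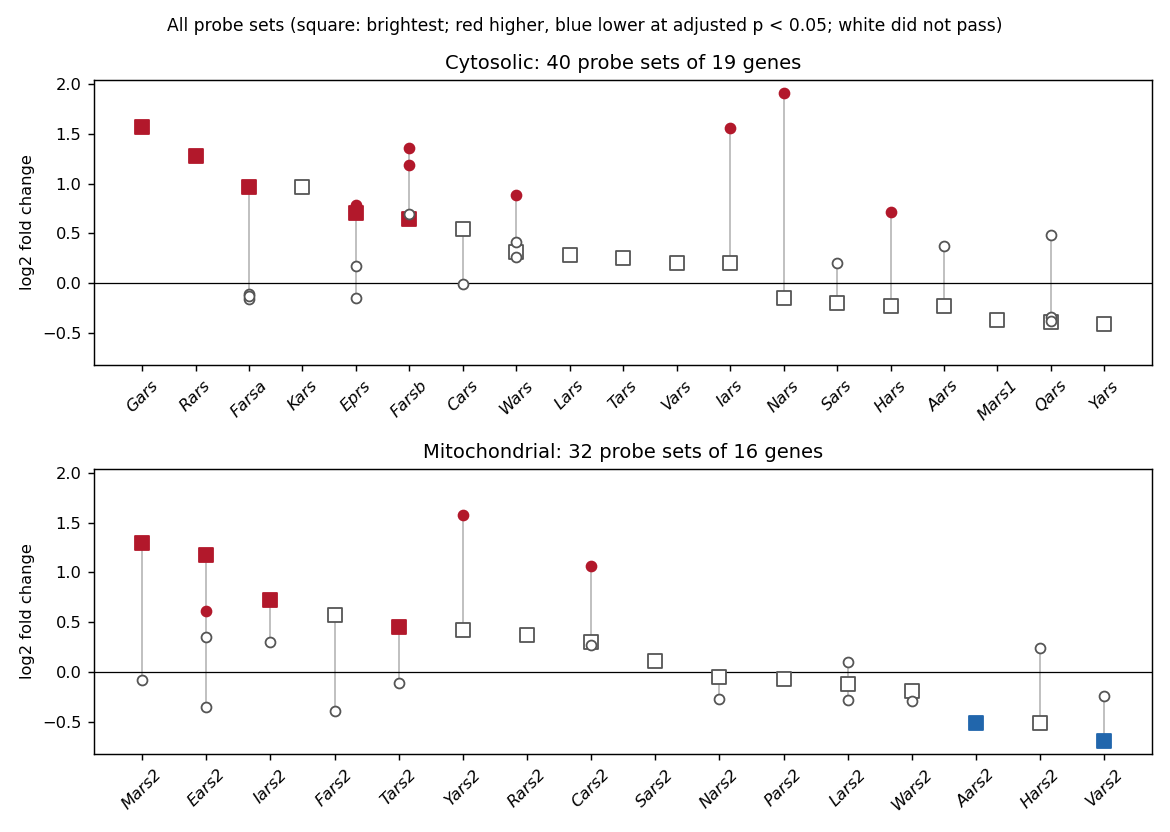
The vertical axis is the log2 fold change of FRG-7dNTBC over FRG+NTBC for all 72 probe sets of the 35 genes, cytosolic above and mitochondrial below. Squares are the brightest probe set of a gene and circles the others, red where higher and blue where lower at an adjusted p under 0.05 and white otherwise. Nars spans the widest range (-0.15 to 1.91).

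Synthetases fall into 2 structural classes that are not related in fold. Among cytosolic enzymes 1 of 9 of class I and 3 of 9 of class II were higher, with medians of 0.20 and 0.25, and Eprs, which joins a class I and a class II enzyme, was higher too. In mitochondria it was 3 of 9 of class I (1 lower) and 1 of 7 of class II (1 lower), with medians of 0.37 and -0.05. Of 7 measured cytosolic enzymes of the multisynthetase complex, 2 were higher (Rars and Eprs, median 0.28), and of the 12 outside it 3 were (Gars, Farsa and Farsb, median 0.23). The shares over all genes were 17.4% higher and 12.7% lower. Those of the classes and of the complex rest on few genes, and were not tested against each other or against all genes.

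The 3 scaffold proteins of the complex were all higher, where 17.4% of all genes were higher and 12.7% lower. Eef1e1 had 826, 820 and 787 in FRG-7dNTBC livers, against 119, 90.5 and 130 in FRG+NTBC livers (log2 fold change 2.86, limma SE 0.16, adjusted p = 3.30e-05). Its values were nearly equal within FRG-7dNTBC and far above those on NTBC. Aimp1 had 704, 755 and 613 in FRG-7dNTBC livers, against 352, 290 and 370 in FRG+NTBC livers (1.04, limma SE 0.15, adjusted p = 0.00154). Aimp2 had 380, 345 and 326 in FRG-7dNTBC livers, against 201, 144 and 170 in FRG+NTBC livers (1.04, limma SE 0.15, adjusted p = 0.00187). All 3 calls held without each mouse in turn.

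Genes next to the synthetases in the pathway moved in both directions. In the mitochondrial amidotransferase, which acts after Ears2, the catalytic subunit Qrsl1 rose by 0.78 (limma adjusted p = 0.00935). Its partners Gatb and Gatc fell by 0.48 and 0.50 (adjusted p = 0.0411 and 0.0422 from limma). Both falls missed the threshold without FRG-7dNTBC replicate 1 or 3 or FRG+NTBC replicate 2 or 3, and that of Gatc also without FRG+NTBC replicate 1, with adjusted p-values of 0.0971 to 0.121 from limma. Of 8 measured synthetase-like and tRNA editing genes, 2 were higher and 2 lower (25.0% each, against 17.4% and 12.7% of all genes). Prorsd1, named for its likeness to an editing domain, and Mtfmt, which formylates the mitochondrial initiator methionyl-tRNA, both rose by 0.95 (adjusted p = 0.00135 and 0.00268 from limma). Sepsecs, the last enzyme in making selenocysteinyl-tRNA, fell by 0.90 (limma adjusted p = 0.00489). Tarsl2, a second threonine enzyme, fell by 0.80 (limma adjusted p = 0.0229), but not past the threshold without FRG-7dNTBC replicate 1 or FRG+NTBC replicate 2 or 3 (0.0836, 0.0856 and 0.0731).

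Of 22 measured genes of tRNA maturation and export, 9 were higher (40.9%) and 2 lower (9.09%), against 17.4% and 12.7% of all genes. The median of their log2 fold changes was 0.50, against -0.05 over all genes. Pop1, a subunit of ribonuclease P, which trims the 5' end of precursor tRNAs, rose by 2.33 (limma adjusted p = 0.00125), and Rpp30 of the same enzyme by 1.24 (0.0103). Tsen15, of the endonuclease that cuts out tRNA introns, rose by 1.61 (limma adjusted p = 7.73e-04), and Trmt61a, of the tRNA adenine methyltransferase, by 1.35 (0.00484). The exportin Xpot stood at 0.16 (limma adjusted p = 0.474). Elac1 (-1.06) and Tsen34 (-0.54) were the lower genes, and the Tsen34 call was lost on leaving out any mouse except FRG+NTBC replicate 2, with adjusted p-values of 0.0556 to 0.0915 from limma. Without moderation 4 of the 22 were higher.

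Of 5 genes of cytosolic elongation factors and their kinase, 1 was higher and 2 were lower. The shares over all genes were 17.4% higher and 12.7% lower, and these few genes were not tested against them. Eef2k, the kinase that inhibits Eef2, had 37.8, 29.2 and 43.7 in FRG-7dNTBC livers, against 331, 241 and 278 in FRG+NTBC livers (log2 fold change -2.95, limma SE 0.19, adjusted p = 5.98e-05). It was the only one of the 3 whose call held without each mouse in turn. Eef1a1, which carries the loaded tRNA to the ribosome, stood at -0.07 (limma adjusted p = 0.717). Eef2 fell by 0.40 (limma adjusted p = 0.0420) and, with 1 mouse left out, passed only without FRG+NTBC replicate 1 (0.0796 to 0.131 otherwise). Eef1b2 rose by 0.44 (limma adjusted p = 0.0390) and missed the threshold without any 1 mouse (0.0630 to 0.109). Of 9 mitochondrial translation factors 2 were higher (22.2%, against 17.4% of all genes). These were Gfm1 (1.32, adjusted p = 0.0116) and Mtrf1l (0.84, limma adjusted p = 0.00792), and Tufm stood at -0.08. Gfm1 had 929, 803 and 402 in FRG-7dNTBC and 267, 242 and 296 in FRG+NTBC livers, and it did not pass without FRG+NTBC replicate 2 (limma adjusted p = 0.0522). Without moderation neither passed.

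Of 24 genes of the integrated stress response, which includes ATF4 and its known targets, 11 were higher (45.8%) and 2 lower (8.33%). Over all genes 17.4% were higher and 12.7% lower. The median of the 24 log2 fold changes was 0.48, against -0.05 over all genes. Slc7a11, Psat1, Slc3a2 and Fgf21 rose most, by 6.88, 2.81, 2.81 and 2.75. Slc7a11 and Slc3a2 form the cystine importer, and Psat1, which makes serine, did not pass without moderation (adjusted p = 0.0587 from limma). Atf4 itself rose by 0.44 (limma adjusted p = 0.0281). It missed the threshold without FRG-7dNTBC replicate 1 or FRG+NTBC replicate 2 or 3 (adjusted p-values of 0.0782 or more from limma). The Atf4 call was also lost after scaling to one 75th percentile (0.102) and after quantile normalization (0.27, 0.164 from limma). An intensity trend (0.0538) and the replicate number as a block (0.0543 from limma) ended it too. Shmt2, a mitochondrial enzyme of serine and glycine metabolism (-1.12), and Chac1, which degrades glutathione (-0.88), were lower. The Chac1 call was lost without FRG-7dNTBC replicate 1 or 2 or FRG+NTBC replicate 1 or 2, with adjusted p-values of 0.0715 to 0.103 from limma. The number higher was 8 to 12 on leaving out 1 mouse.

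Among FRG-7dNTBC mice, replicate 2 was the highest of the group at 15 of the 35 members (42.9%) and the lowest at 14 (40.0%), while replicate 1 was more often in between. Over all genes replicate 2 was highest at 34.7% and lowest at 37.4%. Set against the FRG+NTBC mean, the median member stood at 0.30 in FRG-7dNTBC replicate 1, 0.27 in replicate 2 and 0.04 in replicate 3, where the median of all genes was -0.03, -0.05 and -0.04. For mitochondrial members alone it was 0.19, 0.24 and -0.02. FRG-7dNTBC replicate 3 was the lowest of its group at 15 members (42.9%, against 35.1% of all genes). At 8 of the 15 (Gars, Farsa, Farsb, Kars, Iars2, Tars2, Rars2 and Mars2) it was still above every FRG+NTBC liver. At 5 (Cars, Tars, Vars, Fars2 and Sars2) it fell within the FRG+NTBC range, and at 2 (Cars2 and Nars2) below it.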

How the data were processed

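The authors amplified RNA with a 3' in vitro transcription kit and described making the values by Robust Multiarray Analysis. Its steps were correction of background, quantile normalization of arrays and summary of probes by median polish. With these steps the probes share 1 distribution before their summary, and the summarized values need not. The deposited medians differed (33.1 to 34.3 in FRG-7dNTBC, 35.3 to 36.5 in FRG+NTBC). Quantile normalization of the deposited values took the cytosolic median log2 fold change from 0.25 to 0.05. The reason for the unequal medians was not tested. The submitters' processing notes also list the Transcriptome Analysis Console. Deposited intensity values are linear and ran from 3.84 to 29532, and their log2 was taken here. Precision is limited by 3 mice per group. Names came from the array annotation (34945 with 1 symbol, 932 with several, 9160 with none). Groups were compared with limma 3.58.1 in R 4.3.3 (lmFit and eBayes, no covariates) over 45037 probe sets, with Benjamini-Hochberg adjustment and a threshold of 0.05. The scripts were tested on simulated data first. Pairs were compared with an exact two-sided permutation test.

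Members and gene lists were chosen with earlier results of these data known. All members were named. By rule, per-mouse values are given for calls with a log2 change of 1 or more, the extremes of each compartment, Gars and Kars. Those of other members were added after their values were seen. Of each list, up to 4 genes with the largest change that passed and its best known member were named, and the lower genes beyond these were chosen after their values were seen. Alternatives were other scalings, filters, variance models, array weights, probe set choices, the replicate number as a block and leaving out each mouse. Promoter sequences were matched by gene identifier to RefSeq.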

Additional observations from a re-analysis of the deposited data

How the results depend on the processing

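Of the 11 members that passed, Gars, Rars, Iars2, Vars2, Ears2 and Mars2 kept their call under every alternative run, with Mars2 absent when dim probe sets were left out. Cytosolic genes higher, 5 in the main comparison, numbered 3 without moderation, 7 with array weights and with the mean of a gene's probe sets, and 3 to 6 on leaving out 1 mouse. Cytosolic genes lower, 0 in the main comparison, numbered 2 after scaling to one 75th percentile, after quantile normalization and with array weights, and 1 without moderation and with the mean of a gene's probe sets. Leaving out 1 mouse gave 0 throughout. Mitochondrial genes higher ranged from 3 to 7 and lower from 1 to 3 on leaving out 1 mouse.

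The cytosolic median of 0.25 was 0.12 after scaling to one 75th percentile and 0.05 after quantile normalization. It was 0.41 without probe sets ending in _s_at or _x_at, and 0.17 to 0.33 on leaving out 1 mouse. The mitochondrial median of 0.20 was 0.07 after that scaling, 0.12 after quantile normalization, 0.11 without dim probe sets, 0.10 with the mean of a gene's probe sets, and 0.04 to 0.22 on leaving out 1 mouse. The median of all probe sets shifted by -0.13 and 0.07 with the first and second of these. Over all probe sets, 6284 were higher and 6262 lower. Without moderation these were 3141 and 3336, lower ones after scaling to one 75th percentile were 9669, and leaving out 1 mouse gave 4390 to 6815 higher and 3864 to 6400 lower.

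Signs turned for Aars (0.37), Qars (0.48), Sars (0.20), Sars minus Sars2 (0.09) and Iars minus Iars2 (0.84) without probe sets ending in _s_at or _x_at. With the mean of a gene's probe sets they turned for Aars (0.07), Nars (0.88), Hars (0.24), Tars minus Tars2 (0.08), Iars minus Iars2 (0.37), Nars minus Nars2 (1.04, against -0.10) and Cars minus Cars2 (-0.28, against 0.24). They also turned for Nars2 and Pars2 (0.01 each) without FRG+NTBC replicate 3, with ranges of -0.09 to 0.01 and -0.18 to 0.01 on leaving out 1 mouse, for Nars minus Nars2 (0.04) without FRG-7dNTBC replicate 1, for Farsb minus Fars2 (-0.13, -0.17 and -0.10) without FRG+NTBC replicate 2 or 3 or FRG-7dNTBC replicate 3, and for Sars2 after scaling (-0.02) and without FRG-7dNTBC replicate 2 (-0.07). The cause was not tested beyond the change of probe set itself.

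No clear pairing of mice by equal replicate number was seen, with correlations of their deviations of 0.106, 0.034 and -0.156. With 3 mice per group these values cannot exclude a pairing. With the replicate number as a block, 6 cytosolic genes were higher and 0 lower, 3 mitochondrial genes higher and 2 lower, and 6076 probe sets higher and 5272 lower. For the other lists and dimmer probe sets, the alternatives were chosen after seeing the data.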
